A study of Mus musculus with 6 samples.

Results

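The Zbtb genes encode transcription factors that join an amino-terminal BTB domain to zinc fingers, and 37 of them were listed among the 16862 genes of a mouse fetal testis expression table. They were taken as every gene whose symbol is Zbtb followed by a number and at most 1 letter. Of these, 36 reached 10 or more in at least 3 libraries and were tested, and Zbtb16 did not reach that level. Gonads of male C57BL/6 embryos at E13.5 (embryonic day) were profiled by RNA sequencing, with 3 libraries from L/H-Pgds-/- embryos, called KO here, and 3 from wild-type (WT) littermates. L/H-Pgds-/- embryos lack L-Pgds and H-Pgds, the lipocalin-type and haematopoietic enzymes that make prostaglandin D2 and are encoded by Ptgds and Hpgds. No other allele or treatment is given for either group. Library numbers are as labelled: 5, 7 and 8 are KO, and 1, 3 and 4 are WT. The study set the genotypes against each other to find what prostaglandin D2 signalling does in the fetal testis.

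Zbtb proteins bind DNA through C2H2 zinc fingers and use the BTB domain to pair with each other and to recruit corepressors such as NCoR, SMRT and BCOR, which bring histone deacetylases to the bound genes. Some of them also bind the ubiquitin ligase scaffold Cul3. Members of the family are known for directing cell fate, among them PLZF (Zbtb16), which maintains spermatogonial stem cells after birth, ThPOK (Zbtb7b) in helper T cells and Miz-1 (Zbtb17), a partner of Myc. A smaller branch, Kaiso (Zbtb33), Zbtb4 and Zbtb38, reads methylated CpG, in a tissue where fetal germ cells pass through low DNA methylation and then regain it.

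Values are upper-quartile normalised pseudo-counts, called values below; they are not reads, and the depth of each library is unknown. They summed to between 21657342 and 21846849 in KO libraries and to between 22881124 and 23734462 in WT libraries. Ptgds had 15.2, 4.0 and 2.94 in KO libraries, against 6560, 8137 and 8712 in WT libraries. Markers of the labelled tissue were present, with Amh of Sertoli cells between 36643 and 59874 in KO and between 53137 and 72634 in WT, Cyp11a1 of fetal Leydig cells between 13541 and 20555 in KO and between 19556 and 34450 in WT, and Ddx4 of germ cells between 3149 and 4723 in KO and between 2348 and 3204 in WT. In the deposited values germ cell markers did not move one way: the log2 changes of the 5 had a median of -0.22. Ddx4 was higher by limma (log2 0.48, adjusted p = 0.037), a call not kept with every library left out in turn (adjusted p up to 0.114). Pou5f1 was between 3579 and 4047 in KO and between 4024 and 5366 in WT (log2 -0.31, adjusted p = 0.0548). With the trend along transcript length and GC content removed, the median was 0.14 and 0 of the 5 passed. Over all genes 6.07% were higher and 6.64% lower in that setting. Ddx4, Dazl, Pou5f1 and Dppa3 then had log2 changes of 0.27, 0.14, 0.22 and 0.06, and Nanos2 had -0.66 (SE 0.95). WT library 1 stood apart in skeletal muscle genes: Acta1 was at 7774 there, against 80.2 and 128 in the other WT libraries and 73.5 to 120 in KO. Counts of called genes without this library are given for the members and for each gene list counted below. Of 4 mesonephros markers 1 was higher in KO and 0 lower by limma, beside 17.3% and 17.0% of all tested genes. Without WT library 1, 1 was higher and 2 lower, beside 15.5% and 14.3%. With the trend removed 1 was higher and 0 lower, beside 6.07% and 6.64%. The higher one from all libraries was Lhx1, with 154, 152 and 169 in KO and 44, 73.6 and 51 in WT (log2 1.51, adjusted p = 0.00185). Of 5 ovary markers 0 were higher and 2 lower, Rspo1 and Wnt4, beside 17.3% and 17.0% of all tested genes. Without WT library 1 the counts were also 0 and 2. Wnt4 had 2064, 2171 and 2314 in KO and 3933, 4016 and 3472 in WT (log2 -0.80, adjusted p = 0.000969). With the trend removed 1 was lower, Wnt4 (log2 -0.77, adjusted p = 0.00358), and Rspo1 did not pass (log2 -0.10, adjusted p = 0.512). The part of such cells in the members' values was not tested. Fewer cells of a type and less RNA per cell cannot be told apart in such bulk samples.

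Of the 36 tested members, 11 rose and 2 fell in KO gonads (limma, Benjamini-Hochberg adjusted over all genes tested, threshold 0.05). Over all tested genes 17.3% were higher and 17.0% were lower. Zbtb38 rose 6.63-fold, and the other 10 rose between 1.28-fold and 1.79-fold. The median log2 change of the members was 0.14, against -0.03 over all tested genes. Without WT library 1, 8 members were higher and 2 were lower, beside 15.5% and 14.3% of all genes. Without WT library 4 the counts were 7 and 1, and without KO library 5 there was 1 lower. Log2 changes ran along transcript length and GC content across all genes, and with this trend removed 2 members were higher, Zbtb38 and Zbtb12, and 0 were lower by limma, beside 6.07% and 6.64% of all genes. At an unadjusted p under 0.05 that removal left 4 members higher and 3 lower. No share of all genes is given at that unadjusted threshold, here or for later groups, so such counts have no background beside them. With the trend removed and WT library 1 left out as well, 2 were higher and 0 lower by limma, beside 5.83% and 6.09%.

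Start-site sequences are shown for Zbtb38, whose change stood out in the family, and for Zbtb1 and Zbtb25, neighbours on chromosome 12 of which 1 rose and 1 did not. Each window is from RefSeq on GRCm38.p6, runs from 250 bases before to 50 after an annotated start, and is written 5′ to 3′ on the gene's strand. Capitals mark GC boxes (GGGCGG), ETS-type matches (CCGGAAG) and E-boxes (CACGTG) on either strand. Zbtb38 has 3 listed starts, and the gene's value does not say which of them was used.
Zbtb38 upstream start, chr9:96731626-96731925, minus strand: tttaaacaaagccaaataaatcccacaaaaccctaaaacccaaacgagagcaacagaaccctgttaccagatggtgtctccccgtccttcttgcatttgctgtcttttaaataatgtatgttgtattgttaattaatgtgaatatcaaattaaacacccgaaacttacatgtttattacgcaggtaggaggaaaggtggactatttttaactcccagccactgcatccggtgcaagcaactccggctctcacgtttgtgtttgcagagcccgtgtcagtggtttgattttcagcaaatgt
Zbtb38 middle start, chr9:96719801-96720100, minus strand: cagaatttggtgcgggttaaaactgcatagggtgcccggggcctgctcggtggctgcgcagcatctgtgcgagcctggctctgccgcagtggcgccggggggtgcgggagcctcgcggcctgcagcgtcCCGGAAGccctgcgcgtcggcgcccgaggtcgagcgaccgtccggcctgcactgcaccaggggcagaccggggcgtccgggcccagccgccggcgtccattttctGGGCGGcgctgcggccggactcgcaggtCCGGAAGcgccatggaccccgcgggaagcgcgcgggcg
Zbtb38 downstream start, chr9:96719396-96719695, minus strand: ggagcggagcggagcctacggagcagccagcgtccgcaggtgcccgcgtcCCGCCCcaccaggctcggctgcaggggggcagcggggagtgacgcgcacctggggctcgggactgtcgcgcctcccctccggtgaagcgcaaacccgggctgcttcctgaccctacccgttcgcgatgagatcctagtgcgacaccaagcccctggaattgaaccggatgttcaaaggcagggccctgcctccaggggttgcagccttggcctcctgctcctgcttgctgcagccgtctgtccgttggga
Zbtb1, chr12:76370270-76370569, plus strand: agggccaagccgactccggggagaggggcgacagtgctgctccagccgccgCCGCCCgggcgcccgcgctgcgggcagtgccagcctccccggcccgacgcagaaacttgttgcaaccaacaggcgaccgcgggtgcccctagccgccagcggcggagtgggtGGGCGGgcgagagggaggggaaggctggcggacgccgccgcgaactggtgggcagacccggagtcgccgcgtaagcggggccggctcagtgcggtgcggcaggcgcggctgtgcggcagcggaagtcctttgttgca
Zbtb25, chr12:76369511-76369810, minus strand: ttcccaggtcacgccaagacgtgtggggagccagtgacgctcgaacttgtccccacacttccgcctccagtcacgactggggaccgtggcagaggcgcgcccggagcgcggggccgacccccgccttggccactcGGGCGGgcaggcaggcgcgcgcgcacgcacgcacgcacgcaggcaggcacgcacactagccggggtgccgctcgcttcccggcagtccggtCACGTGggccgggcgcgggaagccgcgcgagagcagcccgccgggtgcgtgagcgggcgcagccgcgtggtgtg

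The upstream Zbtb38 window had a GC content of 41.0% with 8 CpG and none of the motifs searched, while the middle one had 74.7% with 41 CpG, 1 GC box and 2 ETS-type matches. The windows shown for Zbtb1 and Zbtb25 held 39 and 44 CpG; Zbtb25 has a second listed window, chr12:76369415-76369714, with 51 CpG and 3 GC boxes. Across the family 39 windows of 32 members were listed, with a median of 25 CpG each, against a median of 19 over 15128 windows of tested genes. The search covered 8 motifs on both strands, and a match is a description of letters only. The GC box was in 71.8% of member windows and 60.1% of windows of tested genes, and CCGGAAG in 30.8% and 15.4%. The NRF1 motif was in 7.69% against 1.84%, from 3 windows of Zbtb17 and Zbtb41 of which 2 overlap. CACGTG was in 12.8% and 9.53%, CCAAT in 33.3% and 37.4%, TATAAA in 2.56% and 7.58%, TGACGTCA in 2.56% and 2.83%, and TCCTGCNA, the Kaiso site that needs no methylation, in 2.56% and 4.86%. Windows of tested genes include those of the members.

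Among the methyl-CpG readers, Zbtb38, a repressor that binds methylated DNA, had values of 89.8, 111 and 111 in KO libraries, against 10.7, 19.7 and 15.3 in WT libraries. Every KO value was over 4 times the highest WT value. Its log2 change was 2.73 (SE 0.28, limma adjusted p = 0.000802), and 2.36% of tested genes rose at least 2-fold and passed the test. With each library left out in turn the log2 change lay between 2.51 and 2.92, and the adjusted p stayed at or under 0.00748. With the trend taken out it was 2.25 (SE 0.27, adjusted p = 0.00358), and 2.05 when WT library 1 was also left out. Zbtb38 (NCBI gene 245007) spans 96585842 to 96631993 on chromosome 9 in mm9. Per kilobase of its longest coding transcript it stayed among the low members in both genotypes, at 14.1 in KO and 2.05 in WT.

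Zbtb33 encodes Kaiso, which binds methylated CpG pairs and p120 catenin. It had 795, 1071 and 720 in KO libraries, against 576, 636 and 524 in WT libraries, so the groups did not overlap and KO library 7 was the high one. The log2 change was 0.56 (SE 0.15, adjusted p = 0.0169). It was 0.02 (SE 0.09, adjusted p = 0.903) with the length and GC trend removed. The call also ended without WT library 4 (adjusted p = 0.0721) and with a prior that ignores the mean level (0.0535). Zbtb4, a Kaiso-like protein, had 321, 452 and 412 in KO libraries and 323, 312 and 304 in WT libraries. KO library 5 lay within the WT range, and the log2 change of 0.32 (SE 0.15) did not pass (adjusted p = 0.111); it did without that library (log2 0.46, adjusted p = 0.0469) and with values scaled to equal totals (log2 0.42, adjusted p = 0.0461).

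**Figure D1:**
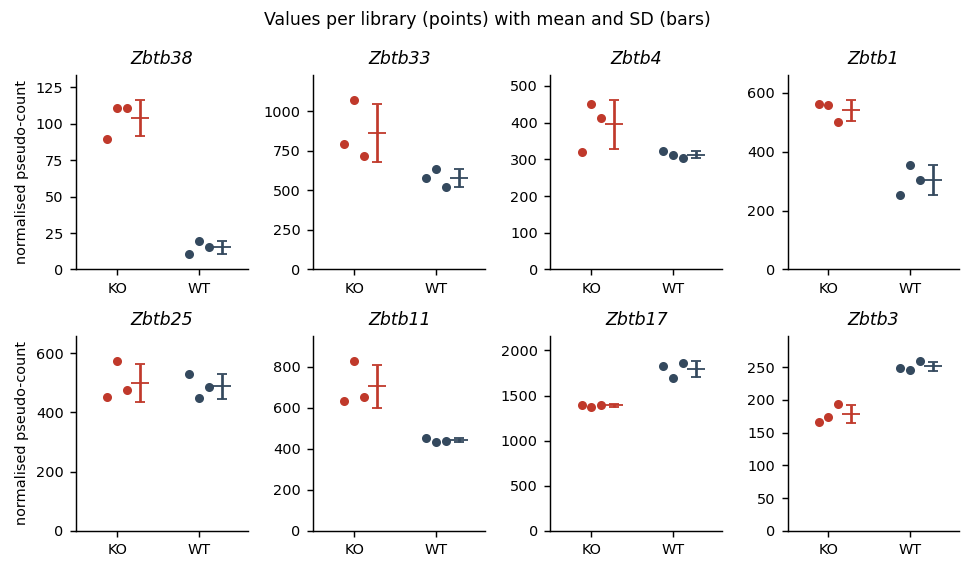
Values of 8 Zbtb members in each KO (left) and WT (right) library, as normalised pseudo-counts on linear axes from 0, with points for libraries and bars for mean and SD (n = 3 each). Zbtb38 lies at 89.8 to 111 in KO and 10.7 to 19.7 in WT, Zbtb17 and Zbtb3 lie lower in KO, and the Zbtb25 groups overlap.

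Of 7 tested members known from development and stem cells, Zbtb11 and Zbtb7a rose and Zbtb17 fell, beside 17.3% and 17.0% of all tested genes. Without WT library 1, 1 was higher and 1 lower, beside 15.5% and 14.3%. With the trend removed 0 passed by limma in either direction, beside 6.07% and 6.64%. At an unadjusted p under 0.05 the removal left 2 higher and 0 lower. Zbtb18, also on this list, is in the table as Zfp238. It is not in these counts and is given with the related genes below, where it rose. Zbtb16, the stem cell factor PLZF, had 9.17, 4.8 and 8.76 in KO libraries and 8.31, 1.63 and 2.78 in WT libraries, all under 10, and was not tested. Zbtb17 (Miz-1), which with Myc controls cell cycle inhibitor genes, fell: it had 1395, 1376 and 1398 in KO libraries, against 1825, 1694 and 1859 in WT libraries. The groups were well apart and the KO libraries close together. Its log2 change was -0.37 (SE 0.08, limma adjusted p = 0.00794), kept with each library left out (adjusted p up to 0.0429), and -0.08 (SE 0.08, adjusted p = 0.523) after the trend was removed.

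Zbtb11, a nuclear zinc finger protein needed for neutrophil development in zebrafish, had 635, 827 and 653 in KO libraries, against 455, 434 and 440 in WT libraries. Its rise was 0.66 in log2 (SE 0.12, adjusted p = 0.0037), with KO library 7 again the highest; after removal of the trend the change was 0.24 (adjusted p = 0.153). Zbtb7a, a repressor of fetal globin genes also called LRF, had 572, 526 and 635 in KO and 432, 508 and 411 in WT. Its groups were narrowly apart, and the log2 change of 0.36 (SE 0.13) passed with little room (adjusted p = 0.0466). The call ended without KO library 5, KO library 8, WT library 1 or WT library 4 (adjusted p from 0.0907 to 0.159), without the filter (0.0504), after quantile normalisation (0.0882) and with a prior that ignores the mean level (0.0719), while the change itself was nearly as large with the trend removed (log2 0.30, SE 0.10, adjusted p = 0.0745).

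Zbtb20, which silences alpha-fetoprotein in the liver, had 11.3, 38.6 and 39.9 in KO libraries and 18.1, 13.8 and 13.6 in WT libraries. KO library 5 lay below all WT libraries and the other KO libraries above them. The log2 change was 0.76 (SE 0.47, adjusted p = 0.236), and 1.32 (adjusted p = 0.0299) without KO library 5. Zbtb24, mutated in a human immunodeficiency with loss of centromeric DNA methylation, had 616, 617 and 541 in KO and 520, 559 and 548 in WT, overlapping groups (log2 0.12, adjusted p = 0.392). Zbtb43, reported to act on Z-DNA in mouse prospermatogonia, had 693, 709 and 654 in KO and 718, 577 and 569 in WT, also overlapping (log2 0.15, adjusted p = 0.349).

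Of the 5 members known mainly from immune cells, 2 rose, beside 17.3% of all tested genes; 1 did without WT library 1, and 0 did by limma with the trend removed (0 at an unadjusted p under 0.05). Zbtb1, needed for lymphocyte development in mice, had 563, 557 and 499 in KO libraries, against 252, 354 and 305 in WT libraries. Its log2 change of 0.84 (SE 0.14, adjusted p = 0.00265) came next after that of Zbtb38 among the members that rose and lay between 0.71 and 0.95 with each library left out. It was 0.20 (SE 0.13, adjusted p = 0.376) after removal of the trend. Zbtb46, a marker of classical dendritic cells, had 525, 533 and 539 in KO and 319, 431 and 410 in WT (log2 0.47, SE 0.13, adjusted p = 0.0208). KO libraries were tightly grouped above all WT libraries, but the call ended without KO library 5, KO library 8 or WT library 1 (adjusted p from 0.0543 to 0.0625). Zbtb7b, Zbtb32 and Zbtb25 had overlapping groups. Summed values of the 6 of 8 leukocyte markers in the table lay between 502 and 560 in KO and between 628 and 830 in WT. Among them Ptprc was between 33.3 and 40.4 in KO and between 32.4 and 38.8 in WT, and Cd4 was at or under 5.09 in KO and 7.1 in WT. Csf1r of macrophages had 350, 347 and 345 in KO libraries, against 588, 433 and 450 in WT libraries (limma adjusted p = 0.0215), a call that ended without KO library 5, KO library 8 or WT library 1 (adjusted p from 0.0518 to 0.0662) and with equal totals (0.0549). The part of leukocytes in the members' values was not tested.

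Zbtb1 and Zbtb25 lie 705 bases apart on chromosome 12 and point away from each other. Zbtb25 had 452, 573 and 475 in KO libraries and 531, 448 and 485 in WT libraries (log2 0.03, SE 0.13, adjusted p = 0.874). The log2 ratio of Zbtb25 to Zbtb1 within a library was -0.32, 0.04 and -0.07 in KO and 1.07, 0.34 and 0.67 in WT. The ratios did not overlap (exact permutation p = 0.1, two-sided, the smallest that 3 against 3 libraries allow; adjusted p = 0.4 over 4 neighbouring pairs). The longest coding transcript of Zbtb1 has 12190 nt and that of Zbtb25 has 2707 nt. With the length and GC trend removed, a setting chosen after seeing the data, the log2 ratios were -0.13, 0.36 and 0.31 in KO and 0.97, 0.30 and 0.44 in WT, and the groups overlapped (exact permutation p = 0.3). The ratios of Zbtb34 to Zbtb43, of Zbtb6 to Zbtb26 and of Zbtb8a to Zbtb8b had overlapping groups, with exact permutation p = 0.4, 0.2 and 0.5. Of these, the ratios of Zbtb8a to Zbtb8b stood apart once the trend was removed, at 1.41, 1.26 and 1.66 in KO and 1.22, 1.14 and 0.87 in WT (exact permutation p = 0.1, before adjustment).

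The remaining members that rose were Zbtb10, Zbtb26, Zbtb34, Zbtb41 and Zbtb44. Zbtb26 had 452, 606 and 427 in KO libraries, against 324, 338 and 300 in WT libraries (log2 0.61, SE 0.15, adjusted p = 0.0112). Zbtb41 had 935, 1184 and 832 in KO, against 606, 690 and 637 in WT (log2 0.60, SE 0.13, adjusted p = 0.00772). Both sets of groups were apart, with KO library 7 the highest. Zbtb10, a repressor of Sp factor genes, had 1111, 1263 and 971 in KO and 724, 866 and 737 in WT (log2 0.52, SE 0.12, adjusted p = 0.00909). Zbtb44 had 1304, 1670 and 1323 in KO and 1077, 1046 and 1014 in WT (log2 0.44, SE 0.11, adjusted p = 0.0117), and Zbtb34 had 663, 667 and 746 in KO and 525, 550 and 543 in WT (log2 0.36, SE 0.10, adjusted p = 0.0217). All these groups were apart; the call of Zbtb44 ended without WT library 4 (adjusted p = 0.0507), and that of Zbtb34 without KO library 5, KO library 8, WT library 1 or WT library 4 (adjusted p from 0.0536 to 0.0708). Once the trend was removed, none of these 5 members passed, and the log2 changes of Zbtb34, Zbtb41 and Zbtb44 turned to -0.05, -0.11 and -0.20.

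Zbtb3 was the other member that fell, with 166, 174 and 194 in KO libraries, against 249, 245 and 259 in WT libraries. The groups did not overlap, and the log2 change was -0.50 (SE 0.14, adjusted p = 0.02), or -0.19 (adjusted p = 0.362) once the trend was removed. Its call ended without KO library 5 (adjusted p = 0.0823) or WT library 4 (0.0731), and with values scaled to equal totals (0.0524). Zbtb45 and Zbtb39 lay just outside the threshold. Zbtb45 had 1024, 830 and 1054 in KO and 1141, 1165 and 1298 in WT, apart and lower in KO (log2 -0.31, SE 0.11, adjusted p = 0.0535; 0.0467 without KO library 8, 0.0457 with the filter at 50 and 0.0397 after quantile normalisation). Zbtb39 had 1047, 906 and 1053 in KO and 645, 907 and 784 in WT, with KO library 7 just below WT library 3 (log2 0.37, SE 0.13, adjusted p = 0.0501). It passed without KO library 7 or WT library 3 (adjusted p = 0.0435 and 0.0185), with the filter at 50 (0.0414) and with equal totals (0.0203).

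The 23 tested members that neither rose nor fell had log2 changes between -0.32 and 0.76. Their groups overlapped except for Zbtb6, higher in KO, and Zbtb5, Zbtb9, Zbtb45 and Zbtb48, lower in KO. With the length and GC trend removed, the log2 changes of Zbtb6 and Zbtb48 turned to -0.28 and 0.05. Zbtb48, a telomere-binding protein, had 686, 489 and 667 in KO libraries, against 804, 729 and 732 in WT libraries (adjusted p = 0.102). Zbtb5 had 768, 782 and 768 in KO and 828, 843 and 821 in WT, a small and even gap (adjusted p = 0.387). Zbtb2, Zbtb8a, Zbtb22, Zbtb40 and Zbtb49 were among the overlapping members, with values between 217 and 1463 over both genotypes.

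**Figure D2:**
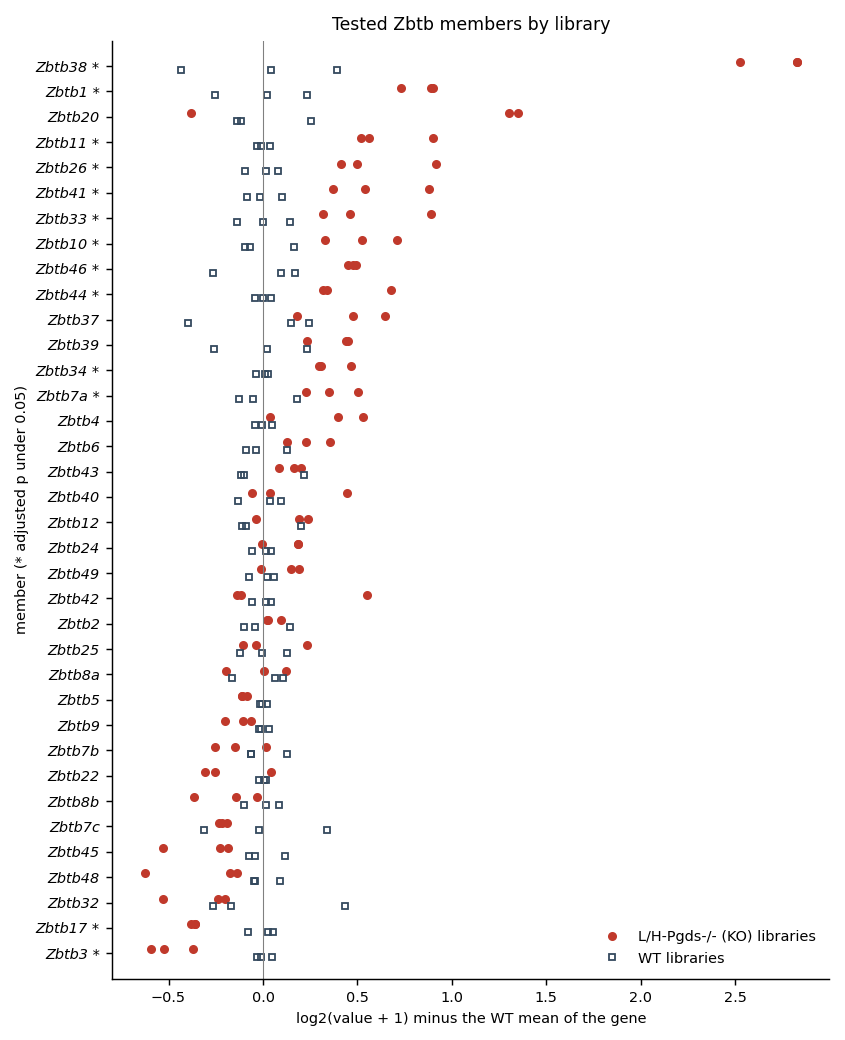
Log2(value + 1) of each tested Zbtb member in KO libraries (filled circles, upper in each row) and WT libraries (open squares), set to the WT mean of the gene; stars mark an adjusted p under 0.05. KO libraries lie above WT libraries for 12 members and below them for 6, and the rest overlap.

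Over all 37 members the KO libraries lay fully above the WT libraries for 12, fully below for 6 and overlapped for 19, beside 24.7% above and 25.6% below over all tested genes. Among the 11 members that rose, KO library 7 held the highest KO value in 6 and WT library 3 the highest WT value in 9, against 37.3% and 34.4% over all tested genes. KO library 7 also held the highest KO value of 4 of 5 germ cell markers, and WT library 1 the highest WT value of all 5. Dazl was at 16154 in KO library 7, against 8502 and 7616 in the other KO libraries and 6133 to 8217 in WT, while Pou5f1 was at 3701 in KO library 7, against 4047 and 3579 in the other KO libraries and 4024 to 5366 in WT. How far the share of germ cells enters the members' values was not tested.

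Levels per kilobase of the longest coding transcript, on the scale of the deposited values, differed widely inside the family. The median member was at 105 in KO and 94.2 in WT, against 204 and 195 for tested genes with a known length. Zbtb12 was the highest member in KO at 615 (563 in WT), and Zbtb17 was the highest in WT at 659 (511 in KO). In KO, Zbtb22, Zbtb8a and Zbtb48 followed, at 485, 301 and 277 in KO and 543, 305 and 340 in WT. At the low end were Zbtb20 at 1.11 in KO and 0.565 in WT, Zbtb16 at 1.48 and 0.829, Zbtb37 at 4.26 and 3.17, and Zbtb38. Of these 4 low members Zbtb38 passed the test, Zbtb20 and Zbtb37 did not, and Zbtb16 was not tested.

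What the members that rose shared, and the selection by name did not use, was a long transcript. The 11 that rose had longest coding transcripts between 4920 and 12190 nt, with a median of 6602 nt and a median coding length of 2013 nt. Those that fell had 2004 nt (Zbtb3) and 2722 nt (Zbtb17). The 23 members that did neither had a median of 3478 nt, from 1775 nt (Zbtb32) to 26901 nt (Zbtb20). Median GC content was 43.6% in those that rose, 56.5% in those that fell and 52.6% in the others. Across the 36 members, which share the same 6 libraries, Spearman's rho of the log2 change was 0.80 with transcript length and -0.70 with GC content, given as a description; over 14449 tested genes it was 0.60 and -0.52.

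Tested genes with a known length were split by length into 5 groups of near equal size, and 15 members were in the longest group, of at least 5114 nt. In that group 10 members rose and 0 fell by limma's test, beside 45.5% and 1.70% of its 2890 genes at the same adjusted threshold. At an unadjusted p under 0.05 the member counts were 11 and 0, with no share of all genes to set beside them. The median log2 change was 0.47 for the members and 0.33 for all genes of the group. The next group held 7 members, of which Zbtb11 rose, beside 25.4% of its genes. Its median log2 change was -0.10 for members and 0.15 for all genes, so members lay lower there. In the 3 shorter groups, 0 of 14 members rose and 2 fell by limma, beside 5.91% and 26.9% of their genes at the same adjusted threshold. At an unadjusted p under 0.05 the member counts were 0 and 3, again without a share of all genes. From the shortest group up, these held 1, 5 and 8 members. Median log2 changes were -0.32, -0.17 and 0.04 for members and -0.42, -0.19 and -0.02 for all genes.

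**Figure D3:**
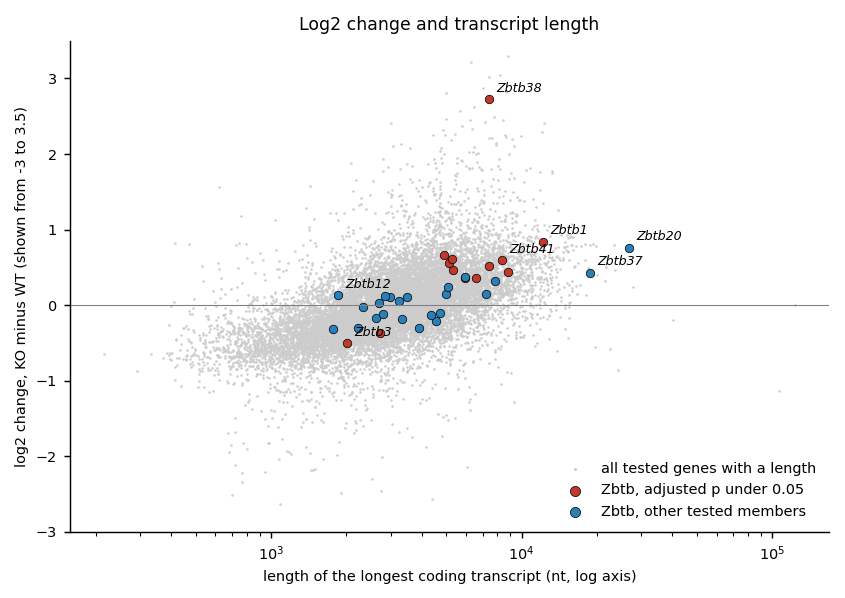
Log2 change in KO relative to WT against the length of the longest coding transcript (log axis) for all tested genes with a length (grey) and for Zbtb members past (red) or not past (blue) the threshold. Changes went up with length in the members (rho 0.80 over 36) and in all genes (rho 0.60 over 14449). Zbtb38 lies far above the other members at 2.73.

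With the length and GC trend removed, the log2 changes of the members lay between -0.28 and 2.25 with a median of 0.02. Of the 10 members that had risen beside Zbtb38, 7 kept a positive log2 change and 3 did not, between -0.20 and 0.30, and none passed (adjusted p from 0.0745 for Zbtb7a to 0.903 for Zbtb33). Zbtb12, a member with a short and GC-rich transcript of 1858 nt, went the other way. It had 1186, 1015 and 1229 in KO libraries and 978, 1195 and 965 in WT libraries, overlapping groups (log2 0.13, SE 0.12, adjusted p = 0.407). After the removal its log2 change was 0.59 (SE 0.11, adjusted p = 0.00968), and 0.54 (adjusted p = 0.0108) without WT library 1. Zbtb12 is named here after its values were seen.

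**Figure D4:**
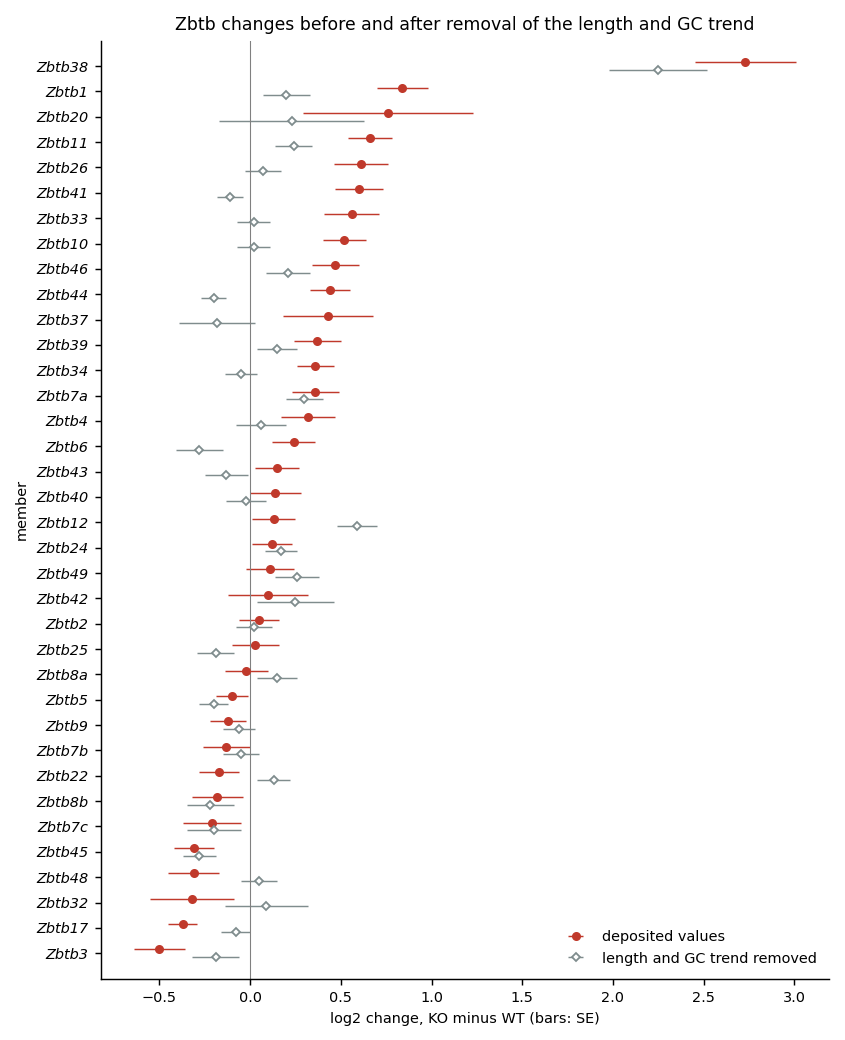
Log2 change in KO relative to WT of each tested Zbtb member with its SE, from deposited values (filled circles) and after the length and GC trend was taken out (open diamonds). The members that rose lie nearer 0 after the removal, Zbtb38 stays at 2.25 and Zbtb12 moves up to 0.59.

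Other genes of the BTB zinc finger family carry other symbols. Of 13 on that list, 10 were in the table under the listed symbol and were tested. Zfp131, Zfp509 and Hkr3 were not found under those symbols. Whether they are present under others, including among the Zbtb members already counted, was not checked. Of the 10, 4 rose and 1 fell (median log2 change 0.25), beside 17.3% and 17.0% of all tested genes. Without WT library 1 the counts were 3 and 1. Zfp238, now Zbtb18 in RefSeq and a repressor in brain development, had 595, 622 and 685 in KO libraries, against 399, 384 and 350 in WT libraries (log2 0.75, SE 0.11, limma adjusted p = 0.00192). Mynn (log2 0.59), Zfp161, now Zbtb14 (log2 0.65), and Gzf1 (log2 0.32) also rose, all with groups apart. The call of Gzf1 ended without WT library 1 (adjusted p = 0.0638) or WT library 4 (0.0513). Hic1, a growth suppressor silenced by methylation in cancers, fell, with 3376, 3449 and 3510 in KO and 4420, 4358 and 4190 in WT (log2 -0.33, SE 0.08, adjusted p = 0.00937; 0.0502 with values scaled to equal totals and 0.0625 after quantile normalisation). With the length and GC trend removed, 0 of these 10 genes were higher and 0 lower by limma, and 3 were higher and 0 lower at an unadjusted p under 0.05.

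Of 21 corepressors and partners of BTB domain proteins, 10 rose and 4 fell (median log2 change 0.29), beside 17.3% and 17.0% of all tested genes. After removal of the trend 5 were higher and 3 lower, beside 6.07% and 6.64%, and without WT library 1 the counts from deposited values were 8 and 3. Those that fell were the deacetylases Hdac1 and Hdac5, the scaffold Sin3b and Gps2 of the NCoR complex. Without WT library 4, 1 fell from deposited values. With the trend removed, Hdac5 (log2 -0.30, adjusted p = 0.0327) and Sin3b (log2 -0.33, adjusted p = 0.0462) were still lower. Hdac1 and Gps2 did not pass then (adjusted p = 0.207 and 0.411). Ep300, a histone acetyltransferase, had 1920, 2327 and 2300 in KO libraries, against 1215, 1426 and 1289 in WT libraries (log2 0.73, SE 0.10, adjusted p = 0.00179). Tbl1x, a subunit of the NCoR complex, had 675, 628 and 920 in KO and 320, 398 and 301 in WT (log2 1.11, SE 0.16, adjusted p = 0.00185). Bcor, the corepressor first found with Bcl6, had 1303, 1346 and 1444 in KO and 818, 1001 and 882 in WT (log2 0.60, adjusted p = 0.0026). These 3 genes also passed with the trend removed, with log2 changes of 0.40, 0.74 and 0.38 (adjusted p = 0.0139, 0.0174 and 0.0138).

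Ncor1, the nuclear receptor corepressor, rose (log2 0.65, SE 0.11, adjusted p = 0.00254), and its log2 change was 0.23 (adjusted p = 0.0706) after the removal. Hdac4, a class IIa deacetylase that binds BTB zinc finger proteins, had 121, 122 and 160 in KO and 69.8, 49.6 and 33.9 in WT (log2 1.43, SE 0.27, adjusted p = 0.00388), and its log2 change was 1.16 (adjusted p = 0.0209) after the removal. Ctbp2 also passed as higher in both settings, with a log2 change of 0.59 (adjusted p = 0.00724) from deposited values and 0.66 (adjusted p = 0.0102) after the removal. Tbl1xr1, a relative of Tbl1x, turned: its log2 change was 0.32 (adjusted p = 0.0189) from deposited values and -0.27 (adjusted p = 0.0237) with the trend removed, past the threshold both ways. Without WT library 1 the second was -0.25 (adjusted p = 0.0535).

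**Figure D5:**
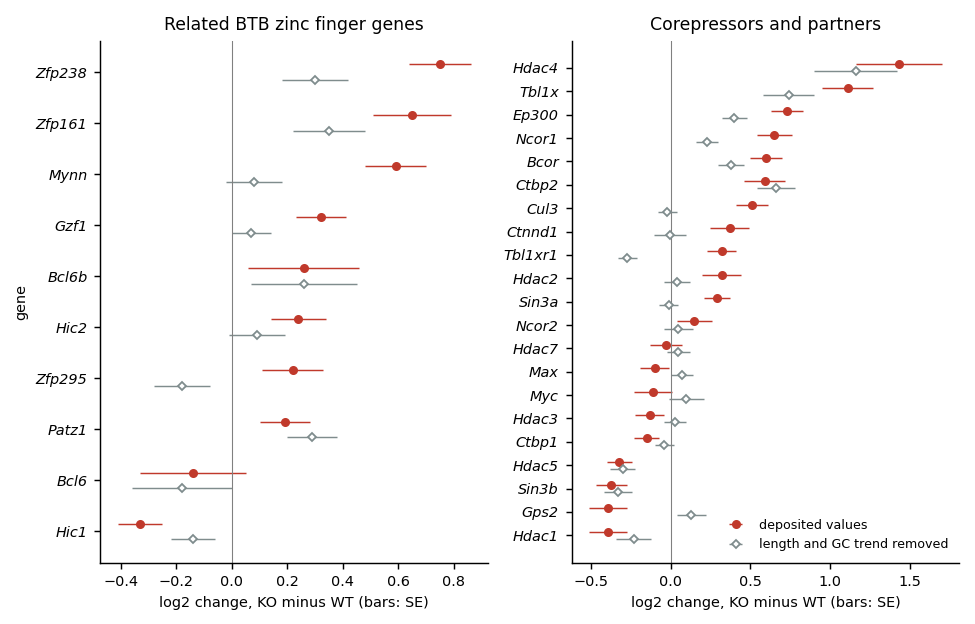
Log2 change in KO relative to WT with its SE for related BTB zinc finger genes (left) and corepressors and partners (right), from deposited values (filled circles) and with the length and GC trend removed (open diamonds). Hdac4, Tbl1x, Ep300, Bcor and Ctbp2 stay above 0 on both, and Hdac5 and Sin3b stay below 0. Tbl1xr1 and Gps2 are among the genes that change sign.

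Among 5 other methyl-CpG binding genes, 1 rose and 1 fell (median log2 change -0.02), beside 17.3% and 17.0% of all tested genes. Without WT library 1, 0 were higher and 1 was lower, beside 15.5% and 14.3%. Mbd3, a subunit of the NuRD complex, fell, with 6648, 5755 and 6706 in KO libraries, against 10006, 8907 and 10179 in WT libraries (log2 -0.61, SE 0.10, adjusted p = 0.00222), and its log2 change was -0.10 (adjusted p = 0.307) after removal of the trend. Mbd4, a thymine glycosylase, rose, with 381, 321 and 320 in KO libraries, against 238, 278 and 243 in WT libraries (log2 0.43, SE 0.14, adjusted p = 0.0346). Its groups were apart, but the call ended without KO library 5, KO library 8, WT library 1 or WT library 4 (adjusted p from 0.052 to 0.15) and after quantile normalisation (0.0563). Once the trend was removed, Mbd4 had a log2 change of 0.15 (adjusted p = 0.49), and Mbd2 was then the 1 gene of the list that was higher (log2 0.36, adjusted p = 0.0162, against -0.02 from deposited values).

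Of 8 genes known as targets of members, 1 rose and 2 fell (median log2 change -0.09), beside 17.3% and 17.0% of all tested genes. Without WT library 1, 2 were higher and 2 lower, beside 15.5% and 14.3%. Of the 8, 0 passed in either direction by limma after removal of the trend (2 higher and 2 lower at an unadjusted p under 0.05). With WT library 1 also left out, Kit (log2 0.28, adjusted p = 0.0474) and Wnt11 (log2 -0.40, adjusted p = 0.0394) passed. Kit, repressed by PLZF, rose, with 1764, 1852 and 1773 in KO libraries, against 802, 1336 and 1117 in WT libraries (log2 0.76, adjusted p = 0.0055). Cdkn1a, a Miz-1 target, fell, with 415, 403 and 459 in KO, against 953, 601 and 560 in WT (log2 -0.69, adjusted p = 0.0163). WT library 1 was the one farthest from the KO libraries for both genes. Wnt11, a Kaiso target in frog embryos, fell, with 773, 621 and 654 in KO and 810, 957 and 1009 in WT (log2 -0.44, SE 0.12, adjusted p = 0.02). Its call ended without KO library 7, KO library 8, WT library 3 or WT library 4 (adjusted p from 0.0527 to 0.0885). Cdkn1a missed the threshold without KO library 5 (0.0547). Mcm10, which Zbtb38 represses in human cells, had 1276, 1169 and 1204 in KO libraries and 1372, 1141 and 1288 in WT libraries, overlapping groups, and Cdca7, a target of Zbtb24, had 2278, 2235 and 2242 in KO and 2268, 2360 and 2364 in WT. Afp, a Zbtb20 target in liver, had 563, 2131 and 822 in KO and 6195, 174 and 596 in WT, overlapping groups with a wide spread in both genotypes.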

How the data were processed

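Each gene has a signal per library, made by the authors from their reads: upper-quartile normalised pseudo-counts, which are adjusted fractional values, so no count model was run, depth is unknown and no counting error is given. Per the submitters' processing notes, CASAVA 1.8.2, edgeR 2.6.2 and mm9 were used; what each was used for, and the annotation, is not given in the sources used here. All 6 value columns were matched to libraries by name, which left 0 unmatched. The labels describe dissection from 6 littermates and state no pools, batches or litters for single libraries, so p-values measure the spread between these libraries.

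Tests used limma 3.58.1 (R 4.3.3) on log2(value + 1) (moderated test with a mean-dependent prior, two-sided, Benjamini-Hochberg over the 15116 genes that reached 10 or more in at least 3 libraries, threshold 0.05). Fold changes are on the log2(value + 1) scale, so those of low genes come out too small. The same genes were tested with each library left out. The length and GC trend was fitted in each library with natural splines (4 degrees of freedom for length and 4 for GC), for 14449 genes (95.6%) matched by NCBI gene ID to their longest coding transcript in GENCODE vM21. Ratios of neighbouring members were compared by exact permutation tests, two-sided. The test was tried on simulated data. Python 3.11.15 with matplotlib 3.10.9 made the figures.

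Coordinates of genes are those of the table, in mm9; start-site windows are from RefSeq on GRCm38.p6, and no coordinate was converted. The members, gene lists and tests were chosen with earlier results of these data known. By the naming rule, values are given for members that fell, that rose at least 2-fold or that passed in the same direction both from deposited values and with the trend removed, for Zbtb4, Zbtb7a, Zbtb16, Zbtb17, Zbtb20, Zbtb24, Zbtb33, Zbtb38 and Zbtb43 whatever their result, and for up to 4 genes past the threshold in each other list by adjusted p. All further named genes, including the other members that rose, Zbtb12, Hdac4, Tbl1xr1 and Mbd2, were added after their values were seen. A gene of the methyl-CpG binding list is not reported here. The kit is not described as stranded; the span of Zbtb7b overlaps that of Gm15417, so its value is uncertain. The start and end of Cdkn2d in the table would cover Zbtb16, Zbtb38 and Zbtb44 whole, and were not used.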

Additional observations from a re-analysis of the deposited data

How the results depend on the processing

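No paired analysis was possible because the genotypes share no replicate number. The counts of Zbtb members higher and lower in KO, 11 and 2, were 2 and 0 with the length and GC trend removed, both with all libraries and without WT library 1. With values scaled to equal totals 14 were higher and 1 lower. That scaling gave 23.2% higher and 11.2% lower over all tested genes, against 17.3% and 17.0% from deposited values. With 1 library left out, 7 to 12 were higher and 1 to 3 lower. For related BTB zinc finger genes (4 and 1), both removals gave 0 and 0, equal totals and quantile normalisation gave 0 lower, and with 1 library left out 3 to 4 were higher and 1 was lower. For corepressors and partners (10 and 4), both removals gave 5 higher, 1 was lower when WT library 1 was also left out, equal totals gave 1 lower, quantile normalisation and the prior without a mean trend gave 2 lower, and leaving out 1 library gave 8 to 10 higher and 1 to 4 lower. For other methyl-CpG binding genes (1 and 1), both removals gave 1 higher and 0 lower, quantile normalisation gave 0 higher, and leaving out 1 library gave 0 to 1 higher and 1 lower. For known targets (1 and 2), the removal gave 0 and 0, or 1 higher and 1 lower when WT library 1 was also left out; equal totals gave 1 lower, the prior without a mean trend 0 lower, and leaving out 1 library gave 1 to 2 higher and 1 to 2 lower.

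With the trend removed, 12 of 36 members changed sign, 8 to negative and 4 to positive. Those without their own value in the next sentence were Zbtb6 (-0.28), Zbtb37 (-0.18), Zbtb40 (-0.02), Zbtb8a (0.15), Zbtb22 (0.13), Zbtb48 (0.05) and Zbtb32 (0.09). With the length and GC trend removed, and then without WT library 1 too, log2 changes were -0.19 and -0.12 for Zbtb25, -0.05 and -0.05 for Zbtb34, -0.11 and -0.14 for Zbtb41, -0.13 and -0.002 for Zbtb43, -0.20 and -0.16 for Zbtb44, -0.27 and -0.25 for Tbl1xr1, and 0.36 and 0.33 for Mbd2; for Zbtb10 it was -0.003 only in the second. Zbtb25 was at -0.03 after quantile normalisation, and between -0.07 and 0.10 with 1 library left out. Mbd2 was at 0.09 with equal totals and between -0.04 and 0.02 with 1 library left out. The direction and call of Zbtb38 were the same under every setting run. Scaling to equal totals moved the median log2 change of all genes to 0.07 from -0.03, and shifts of that size bear on members with small changes. Pseudocounts of 0.5 and 10, no filter, a filter at 50 and the median of ratios kept the counts within 1.5 times. The causes were not tested. The unknown depth limits what can be said of Zbtb16, Zbtb20 and other low members.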

Other observations

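Zbtb8os, a gene of the Zbtb8 locus whose symbol the selection leaves out, had 329, 460 and 317 in KO libraries and 385, 338 and 412 in WT libraries, overlapping groups (log2 -0.05, SE 0.16, limma adjusted p = 0.817).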
